A study of Mus musculus with 16 samples.

Results

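Glycogen synthesis and breakdown was followed through 9 genes: Gyg, Gys2, Gbe1, Ugp2, Pgm1, Pygl, Phka2, Ppp1r3b and Ppp1r3c. They were chosen by gene symbol, as all probe sets whose only gene symbol is one of these names, and made up 18 of the 34945 probe sets with 1 gene symbol and 9 of the 18193 genes tested. Gene expression had been read on Affymetrix arrays, 1 array per sample, from liver of male C3H/HeJ mice. Every group had received 1 injection of the liver carcinogen diethylnitrosamine, at 10 or 90 ug per g body weight and at 2 or 6 weeks of age, so the controls are carcinogen-treated too. There were 7 Ctnnb1-mutated tumours, in which the gene of beta-catenin is mutated, and 3 pieces of non-tumour liver, all under 0.05% phenobarbital, a barbiturate that promotes such tumours. There were also 3 Ha-ras-mutated tumours, with a mutated small GTPase, and 3 pieces of non-tumour liver, all without phenobarbital. The sample labels give 27 weeks of treatment in drinking water, the series text a diet for 28 to 36 weeks, and the treatment protocol a course of 28 days. Mutation and phenobarbital go together, so a difference between the tumour types cannot be split between them. Which group had which carcinogen dose and age at injection is not given here. These may also differ between the 2 arms, and so between the 2 control groups. It is not stated in the labels that each sample is from an animal of its own, and the p-values then measure only the spread between these samples, part of which may be technical.

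Hepatocytes store glucose after meals as glycogen and release it between meals. Glycogenin starts each particle, glycogen synthase lengthens its chains with glucose from UDP-glucose, and the branching enzyme adds the branch points. Glycogen phosphorylase, switched on by phosphorylase kinase, shortens the chains again, while protein phosphatase 1, brought to the particle by targeting subunits, switches the synthase on and the phosphorylase off.

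Gyg, the gene of glycogenin, was the only one of the 9 to pass the test in both tumour types, and on the probe set used it rose in each. The liver phosphorylase gene Pygl fell in Ha-ras tumours, a call close to the threshold that was lost with most single arrays of that comparison left out. Set against Ha-ras tumours, Ctnnb1 tumours had less RNA of the liver glycogen synthase gene Gys2 and more of Gbe1, Pygl and Phka2. There the Gbe1 and Pygl calls were lost when certain single Ha-ras tumours were left out, while those of Gys2 and Phka2 held. The promoters of the 2 genes that passed in a tumour against its control are shown, with that of Ppp1r3c, which held the most motif matches. Each runs from 250 bases before to 50 bases after the annotated start, 5′ to 3′ on the gene's strand, from RefSeq (GRCm38.p6). They lie on the minus strand at chr3:20155067-20155366 (Gyg), chr12:70227634-70227933 (Pygl) and chr19:36736555-36736854 (Ppp1r3c), and capitals mark motif matches.
Gyg: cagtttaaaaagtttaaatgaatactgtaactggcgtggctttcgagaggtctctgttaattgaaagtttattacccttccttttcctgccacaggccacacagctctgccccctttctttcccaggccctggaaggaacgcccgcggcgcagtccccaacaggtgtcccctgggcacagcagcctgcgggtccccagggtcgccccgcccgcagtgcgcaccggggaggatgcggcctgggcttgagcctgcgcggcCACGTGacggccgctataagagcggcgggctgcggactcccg
Pygl: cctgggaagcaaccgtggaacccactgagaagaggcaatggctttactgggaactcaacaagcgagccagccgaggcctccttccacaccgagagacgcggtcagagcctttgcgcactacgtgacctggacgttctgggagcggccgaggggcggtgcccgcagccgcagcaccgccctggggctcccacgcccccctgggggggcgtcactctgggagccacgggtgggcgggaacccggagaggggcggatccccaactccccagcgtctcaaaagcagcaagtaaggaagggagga
Ppp1r3c: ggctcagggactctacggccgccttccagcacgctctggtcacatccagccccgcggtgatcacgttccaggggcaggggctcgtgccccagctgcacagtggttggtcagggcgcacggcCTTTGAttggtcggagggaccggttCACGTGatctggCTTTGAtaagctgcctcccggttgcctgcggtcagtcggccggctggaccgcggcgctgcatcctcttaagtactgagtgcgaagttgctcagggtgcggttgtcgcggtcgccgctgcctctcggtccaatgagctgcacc

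RefSeq promoter sequences were matched for 7 of the 9 genes, 8 promoters in all because Ugp2 has 2. Gys2 and Ppp1r3b were not matched. The motifs searched, on both strands, were CACGTG (the E-box read by bHLH factors), TGACGT (the core of the cAMP response element), GTAAACA (read by FoxO and FoxA factors), CTTTGA (the core of the TCF/LEF site) and TGANTCA (the AP-1 site). CACGTG occurred in 2 of the 8 promoters, Gyg at bases 259 to 264 and Ppp1r3c at bases 147 to 152 of the window, and in 7.15% of 32851 promoters of the same length. CTTTGA occurred only in the Ppp1r3c promoter, at bases 122 to 127 and 159 to 164 and overlapping no other match, against 16% of all promoters. The other 3 motifs were not in these 8 windows, and are in 7.51%, 3.65% and 7.81% of all promoters. A match describes letters and was not tested as a binding site.

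Values are deposited log2 expression values (RMA), so a difference of 1 is a doubling. Each gene was read from the probe set with the highest mean. A gene was called where limma gave an adjusted p under 0.05 (Benjamini-Hochberg, over all 18193 genes). The 16 arrays had medians of 5.03 to 5.10. Phenobarbital control 6 stood apart: its 3′ Gapdh control probe set lay 2.70 above the 5′ one, against -0.15 to 0.32 on the other arrays. Hepatocyte markers, 4 of 5 measured, averaged 14.13 to 14.23 in Ctnnb1 tumours and 13.93 to 14.18 in phenobarbital controls. They averaged 14.21 to 14.26 in Ha-ras tumours and 14.10 to 14.16 in untreated controls. Other markers moved with the groups. The 4 measured periportal markers averaged 8.03 to 10.49 in Ctnnb1 tumours against 12.55 to 13.05 in phenobarbital controls, and 11.17 to 12.21 in Ha-ras tumours against 12.79 to 13.03 in untreated controls. The 5 pericentral markers averaged 11.41 to 13.70 in Ctnnb1 tumours against 11.50 to 12.91 in phenobarbital controls, and 9.83 to 10.69 in Ha-ras tumours against 11.93 to 12.28 in untreated controls. The 6 macrophage markers averaged 7.77 to 8.67 in Ctnnb1 tumours against 8.35 to 9.17 in phenobarbital controls, and 6.55 to 8.71 in Ha-ras tumours against 8.38 to 9.30 in untreated controls. The 7 stellate and fibroblast markers averaged 7.31 to 8.15 in Ctnnb1 tumours against 8.05 to 8.49 in phenobarbital controls, and 7.47 to 8.17 in Ha-ras tumours against 8.22 to 8.31 in untreated controls. The 6 endothelial markers averaged 6.59 to 8.17 in Ctnnb1 tumours against 7.85 to 8.58 in phenobarbital controls, and 7.25 to 8.49 in Ha-ras tumours against 8.14 to 8.35 in untreated controls. Some members of the macrophage, stellate and endothelial lists had higher means in tumours, none with a call. These were Col1a1, Col3a1, Lyve1 and Pecam1 in both tumour types. Cd68 (8.88 against 8.05) was higher in Ctnnb1 tumours only, and Reln (10.11 against 9.36) in Ha-ras tumours only. The 5 proliferation markers averaged 6.60 to 8.16 in Ctnnb1 tumours against 5.37 to 5.55 in phenobarbital controls, and 6.20 to 8.09 in Ha-ras tumours against 4.94 to 5.76 in untreated controls. Of them 5 were called higher in Ctnnb1 and 4 in Ha-ras tumours. Mki67 on its own overlapped in the phenobarbital arm (lowest tumour 7.02, highest control 7.18). Like Gyg, the proliferation and periportal averages were apart in both arms, the first higher and the second lower in tumours. Of the periportal markers, 4 were called lower in Ctnnb1 tumours and 0 in Ha-ras tumours. Hal overlapped in the Ha-ras arm, with a mean of 11.11 in tumours against 11.03 in untreated controls. The part of these cell types, of proliferation and of RNA quality in the glycogen genes was not tested. In whole tissue, fewer cells of a type and less RNA per cell cannot be told apart.

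**Figure D1:**
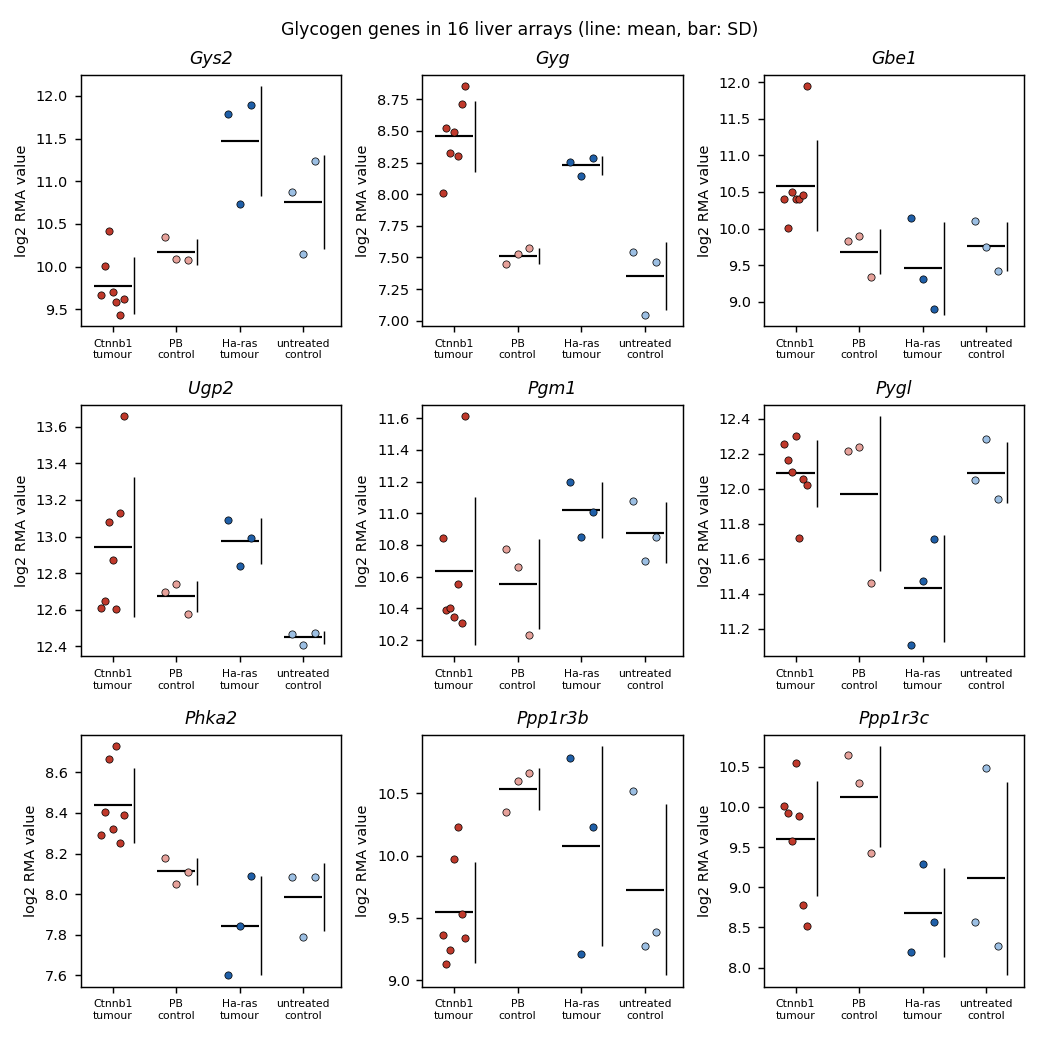
Log2 RMA value (vertical axes) of the 9 glycogen genes on each array, for Ctnnb1 tumours (n = 7), phenobarbital (PB) controls (n = 3), Ha-ras tumours (n = 3) and untreated controls (n = 3). Points are arrays, horizontal lines group means and vertical bars the SD. All tumours lay above all controls for Gyg, and the highest Ctnnb1 tumour for Gbe1, Pgm1 and Ugp2 was tumour 7.

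Gyg encodes the self-glucosylating protein on which a new glycogen particle is begun. It stood at 8.01 in the lowest, 8.49 in the median and 8.86 in the highest Ctnnb1 tumour, against 7.45, 7.52 and 7.57 in the phenobarbital controls. Ha-ras tumours had 8.25, 8.14 and 8.29, against 7.54, 7.05 and 7.47 in untreated controls. The lowest tumour of either type was therefore above the highest of the 6 controls. Gyg rose 1.92-fold in Ctnnb1 tumours (log2 fold change 0.94 ± 0.15, SE, adjusted p = 0.00113) and 1.83-fold in Ha-ras tumours (0.87 ± 0.18, adjusted p = 0.00367). The changes differed by 0.07 ± 0.24 (95% interval -0.43 to 0.57, adjusted p = 0.92). Between control groups the log2 difference was 0.16 ± 0.18 (adjusted p = 0.736), phenobarbital over untreated. A second Gyg probe set rose by 1.44 in Ctnnb1 tumours (adjusted p over all probe sets 0.000402, where 10.1% of probe sets were called), where phenobarbital control 6 was low at 6.13 against 7.21 and 7.31 in the other 2 controls. In Ha-ras tumours it was 0.75 above the untreated controls and was not called (adjusted p = 0.0523, where 10.5% of probe sets were called). Its changes differed by 0.70 ± 0.31 (95% interval 0.04 to 1.35), larger in Ctnnb1 tumours and not called (adjusted p = 0.262). In the same tumours the proliferation markers were on average higher and the periportal markers lower, though no periportal marker was called in Ha-ras tumours. The part of these markers in the Gyg values was not tested.

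Of the 9 genes, 1 was called in Ctnnb1 tumours against phenobarbital controls, where 12.0% of all genes were called. In Ha-ras tumours against untreated controls 2 of 9 were called, against 13.5% of all genes. Both counts are small and near those shares. The groups did not overlap for 4 of 9 genes in the Ctnnb1 comparison, against 12.6% of all genes, and for 3 of 9 in the Ha-ras comparison, against 34.8%. The median log2 fold change over the 9 genes was 0.12 in Ctnnb1 tumours and 0.14 in Ha-ras tumours, beside -0.03 and -0.04 over all genes.

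Gys2 encodes the liver form of glycogen synthase. Its value was 9.44 in the lowest, 9.67 in the median and 10.42 in the highest Ctnnb1 tumour, against 10.35, 10.09 and 10.08 in phenobarbital controls. It was 11.79, 10.73 and 11.90 in Ha-ras tumours, against 10.88, 10.15 and 11.24 in untreated controls. Tumours and their own controls overlapped in both arms, while every Ctnnb1 tumour lay below every Ha-ras tumour. The log2 fold change was -0.39 ± 0.26 in Ctnnb1 tumours (adjusted p = 0.373) and 0.72 ± 0.31 in Ha-ras tumours (95% interval 0.06 to 1.38, adjusted p = 0.154). The test of the difference between these changes gave -1.11 ± 0.41 (adjusted p = 0.143). Without Ha-ras tumour 2, which was the low one, Gys2 would be called in Ha-ras tumours (1.09, adjusted p = 0.026) and for the difference (-1.48, adjusted p = 0.0327). Untreated control 2, which has the same number, was the low one of the untreated controls (10.15). Directly compared, Gys2 was 3.23-fold lower in Ctnnb1 tumours than in Ha-ras tumours (-1.69 ± 0.26, adjusted p = 0.000303). Part of that distance stood between the controls, where phenobarbital over untreated gave -0.58 ± 0.31 (adjusted p = 0.426).

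Gbe1 encodes the branching enzyme. Ctnnb1 tumours had a lowest value of 10.01, a median of 10.40 and a highest of 11.95, against 9.82, 9.90 and 9.33 in phenobarbital controls. Ha-ras tumours had 10.14, 9.31 and 8.91, against 10.10, 9.75 and 9.43 in untreated controls. All 7 Ctnnb1 tumours were above their controls, yet Gbe1 was not called there (log2 fold change 0.90 ± 0.33, 95% interval 0.19 to 1.61, adjusted p = 0.0905). The highest value was tumour 7, and without it the change was 0.68 (adjusted p = 0.0677). In Ha-ras tumours the groups overlapped (-0.30 ± 0.39, adjusted p = 0.697). Gbe1 was 2.19-fold higher in Ctnnb1 than in Ha-ras tumours (1.13 ± 0.33, adjusted p = 0.0301), although their arrays overlapped. The call was lost without Ha-ras tumour 2 (1.06, adjusted p = 0.114) or 3 (0.86, adjusted p = 0.162).

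The supply of UDP-glucose runs through Pgm1, a phosphoglucomutase that interconverts glucose 6-phosphate and glucose 1-phosphate, and Ugp2, which joins glucose 1-phosphate to UTP. Ugp2 had 13.09, 12.84 and 12.99 in Ha-ras tumours against 12.47, 12.41 and 12.47 in untreated controls. These groups were apart, but the change was not called (0.52 ± 0.21, adjusted p = 0.124). It was called when only the arrays of the 2 groups were fitted (0.52, adjusted p = 0.0163). All 5 Ugp2 probe sets were higher in Ha-ras tumours, by 0.52 to 0.58, and none was called. In Ctnnb1 tumours Ugp2 ran from 12.60 through a median of 12.87 to 13.66, against 12.70, 12.74 and 12.58 in phenobarbital controls, which overlap (0.27 ± 0.18, adjusted p = 0.368). Ugp2 was the only one of the 9 genes whose control groups did not overlap, with phenobarbital above untreated controls by 0.22 ± 0.21 (adjusted p = 0.683). That is 1 of 9 genes against 18.8% of all genes.

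Pgm1 was at 10.31 in the lowest, 10.40 in the median and 11.61 in the highest Ctnnb1 tumour, against 10.77, 10.66 and 10.23 in phenobarbital controls. It was 11.20, 10.85 and 11.01 in Ha-ras tumours, against 11.08, 10.70 and 10.85 in untreated controls. The groups overlapped in both arms, with log2 fold changes of 0.08 ± 0.23 (95% interval -0.41 to 0.57, adjusted p = 0.861) and 0.14 ± 0.27 (-0.43 to 0.72, adjusted p = 0.803). Ctnnb1 over Ha-ras tumours gave -0.38 ± 0.23 (adjusted p = 0.323), and -0.55 (adjusted p = 0.0171) without Ctnnb1 tumour 7. A dim second Pgm1 probe set fell by 0.49 in Ctnnb1 tumours (adjusted p over all probe sets 0.0461), so the 2 Pgm1 probe sets disagree there.

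Pygl encodes liver glycogen phosphorylase, which frees glucose 1-phosphate from the chain ends. Ha-ras tumours had 11.11, 11.47 and 11.71, against 12.05, 12.28 and 11.94 in untreated controls. Each Ha-ras tumour was below each untreated control. Pygl fell 1.58-fold in Ha-ras tumours (-0.66 ± 0.21, 95% interval -1.10 to -0.22, adjusted p = 0.0433). This call lies close to the threshold and did not stand when untreated control 1 was left out (adjusted p = 0.0918), nor untreated control 2 (0.152) or 3 (0.0637), nor Ha-ras tumour 1 (0.189) or 2 (0.0902). In Ctnnb1 tumours Pygl ran from 11.72 through a median of 12.09 to 12.30, against 12.22, 12.24 and 11.46 in phenobarbital controls. The low control was array 6, the one with the wide Gapdh gap. The change was 0.12 ± 0.17 (adjusted p = 0.728) with it and -0.14 (adjusted p = 0.691) without it. The 2 tumour changes differed by 0.78 ± 0.27 (95% interval 0.20 to 1.35), which was not called (adjusted p = 0.117). Every Ctnnb1 tumour was above every Ha-ras tumour, by 1.58-fold on average (0.66 ± 0.17, adjusted p = 0.0166), a call lost without Ha-ras tumour 1 (0.49, adjusted p = 0.138) or 2 (0.68, adjusted p = 0.0508).

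Phka2 encodes the liver alpha subunit of phosphorylase kinase, a regulatory part of the enzyme that activates phosphorylase. It had 8.25 in the lowest, 8.39 in the median and 8.73 in the highest Ctnnb1 tumour, against 8.18, 8.05 and 8.11 in phenobarbital controls. It had 7.60, 7.84 and 8.09 in Ha-ras tumours, against 8.08, 7.79 and 8.08 in untreated controls. All Ctnnb1 tumours lay above the other 9 arrays. The change against phenobarbital controls was small and not called (0.33 ± 0.13, adjusted p = 0.106), as was that of Ha-ras tumours (-0.14 ± 0.15, adjusted p = 0.617). Phka2 was 1.51-fold higher in Ctnnb1 than in Ha-ras tumours (0.59 ± 0.13, adjusted p = 0.00391). Of its other probe sets, both dim, 1 was higher by 0.78 in that comparison (adjusted p over all probe sets 0.0277, where 12.2% were called) and the other by 0.06.

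**Figure D2:**
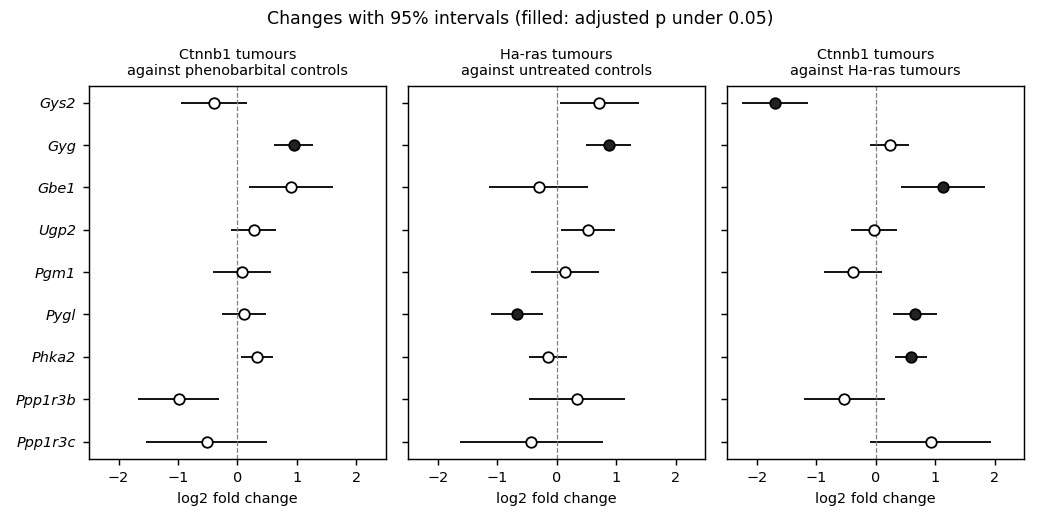
Log2 fold changes of the 9 genes (horizontal axes) with 95% intervals in 3 comparisons, filled where called at an adjusted p under 0.05. Gyg is filled in both comparisons of a tumour with its controls, Pygl in the Ha-ras one, and Gys2, Gbe1, Pygl and Phka2 between the tumour types.

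Ppp1r3b and Ppp1r3c encode subunits that target protein phosphatase 1 to glycogen. Ppp1r3b, the main one in liver, ran from 9.13 through a median of 9.37 to 10.23 in Ctnnb1 tumours, against 10.35, 10.60 and 10.66 in phenobarbital controls. All 7 tumours lay below the 3 controls. With a log2 fold change of -0.99 ± 0.32 (95% interval -1.67 to -0.31) it narrowly missed the threshold (adjusted p = 0.0552), and was called without Ctnnb1 tumour 5 (-1.11, adjusted p = 0.0333) or with only the arrays of those groups (adjusted p = 0.0195). In the other arm Ha-ras tumours had 10.79, 9.21 and 10.23, against 10.51, 9.28 and 9.39 in untreated controls. There the arrays of each group were spread over more than 1 unit and overlapped (0.35 ± 0.38, adjusted p = 0.629). The difference between the changes was -1.34 ± 0.50 (adjusted p = 0.147), and it was called without Ha-ras tumour 2 (-1.77, adjusted p = 0.0394).

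Ppp1r3c, also known as protein targeting to glycogen, had the largest SD over the 16 arrays of the 9 genes (0.86). It ran from 8.52 through a median of 9.89 to 10.55 in Ctnnb1 tumours, against 10.65, 10.29 and 9.43 in phenobarbital controls. It was 8.20, 9.29 and 8.57 in Ha-ras tumours, against 8.57, 10.49 and 8.28 in untreated controls. The groups overlapped in both arms, and the untreated controls alone covered over 2 units. The log2 fold changes were -0.52 ± 0.48 (95% interval -1.54 to 0.50, adjusted p = 0.537) and -0.43 ± 0.57 (-1.63 to 0.78, adjusted p = 0.705). Both intervals include 0 and were the widest of the 9 genes in their arm.

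Between the tumour types 4 of the 9 genes were called, where 15.1% of all genes were called. In Ctnnb1 tumours 3 were higher, against 7.21% of all genes, and 1 was lower, against 7.90%. The groups did not overlap for 3 of 9, against 16.2% of all genes. Without Ha-ras tumour 2, 2 of the 4 calls were left. For the difference between the tumour changes 0 of 9 were called in limma, against 5.43% of all genes. Gys2, Gbe1, Pygl, Phka2 and Ppp1r3b had an unadjusted p under 0.05 there. The share of all genes under that unadjusted threshold was not counted, so no result is read from it. Phenobarbital over untreated controls likewise gave 0 of 9 calls in limma, against 0.214% of all genes, with only Ppp1r3b at an unadjusted p under 0.05 (0.0493). The largest differences there were 1.02 ± 0.57 for Ppp1r3c (adjusted p = 0.446) and 0.81 ± 0.38 for Ppp1r3b (adjusted p = 0.365).

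In the order of the 4 group means, most neighbours had overlapping arrays. Neighbours stood apart only for Gyg (Ha-ras tumours over phenobarbital controls), Ugp2 (phenobarbital over untreated controls) and Phka2 (Ctnnb1 tumours over phenobarbital controls). Gys2 was highest in Ha-ras tumours and lowest in Ctnnb1 tumours. Gbe1, Gyg and Phka2 were highest in Ctnnb1 tumours. Ppp1r3b and Ppp1r3c were highest in phenobarbital controls.

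Among the 7 Ctnnb1 tumours, tumour 7 was the highest in 10 of the 18 probe sets, the lowest in 3 and inside the range in 5. By gene it was the highest for 4 of the 9 and the lowest for 1. Its array also had the lowest mean correlation with the other Ctnnb1 tumours over all genes (0.983, against 0.986 to 0.990 for the others). How often tumour 7 is the highest or lowest over all probe sets was not counted. In that tumour Gbe1 was 11.95, against 10.01 to 10.49 in the other 6. Pgm1 was 11.61 against 10.31 to 10.84, and Ugp2 was 13.66 against 12.60 to 13.13. On the probe sets used, branching and UDP-glucose supply genes were thus high together there, while Gys2 (9.63) and Pygl (12.02) lay inside the range of the other tumours. The dim second Pgm1 probe set was also inside that range in tumour 7 (5.47 against 4.99 to 5.54). Ppp1r3c was lowest in tumour 7 (8.52) and next lowest in tumour 6 (8.78), against 9.58 to 10.55 in tumours 1 to 5. Tumour 7 also had the highest values of 4 of 5 antioxidant genes regulated by NRF2, a list chosen after the values of the glycogen genes were seen. Of these Nqo1 was 10.22 against 7.28 to 8.89 and Srxn1 13.24 against 10.04 to 11.38 in the other 6 tumours, while Gclm was lowest (11.65 against 11.75 to 12.08). Gclc (12.75 against 11.96 to 12.63) and Txnrd1 (11.21 against 10.65 to 11.12) were highest by a narrow margin. The part of these antioxidant genes in the glycogen genes was not tested.

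**Figure D3:**
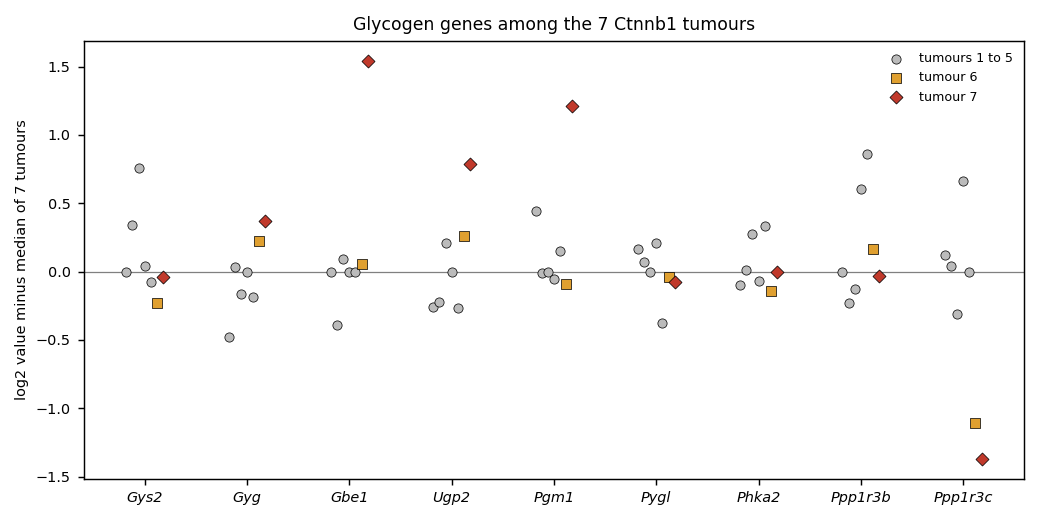
Log2 value minus the median of the 7 Ctnnb1 tumours (vertical axis) for each of the 9 genes, 1 symbol per tumour. Tumour 7 (diamonds) is highest for Gyg, Gbe1, Ugp2 and Pgm1 and lowest for Ppp1r3c, with tumour 6 (squares) next lowest for Ppp1r3c.

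The genes most like Gyg and Pygl over the 16 arrays were sought by the smallest root mean square difference, after centring each gene on its mean, among 9095 genes that vary more than the median gene. For Gyg they were Ube2l6 (0.213), Gcc2 (0.214) and Plin3 (0.243), where the median gene differed by 0.629. For Pygl they were Emc2 (0.147), Glo1 (0.161) and Mgme1 (0.163), where the median gene differed by 0.485.

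A list of 23 other genes of glycogen metabolism was analysed beside the 9. In Ctnnb1 tumours 1 rose and 1 fell, where 12.0% of all genes were called, and in Ha-ras tumours 2 rose and 2 fell, where 13.5% of all genes were called. Their median log2 fold changes were -0.12 and -0.16. In Ctnnb1 tumours the largest value was that of Ppp1r3g, another targeting subunit gene, which was not called (-1.36 ± 0.56, adjusted p = 0.125) and is named after its value was seen. Gaa, the acid glucosidase that breaks down glycogen in lysosomes, fell there (-0.48 ± 0.14, adjusted p = 0.0313). That call was lost without Ctnnb1 tumour 3 or 4 or phenobarbital control 4 or 6 (adjusted p = 0.0509 to 0.201, with a change of -0.30 without the last). Phenobarbital controls themselves lay above untreated controls for Ppp1r3g (1.77 ± 0.66, adjusted p = 0.255) and Gaa (0.46 ± 0.16, adjusted p = 0.233), without a call. The 2 that fell in Ha-ras tumours were Ppp1r3e, also a targeting subunit gene (-0.61 ± 0.14, adjusted p = 0.00851, and -0.22 without a call on its other probe set), and Phkg2, a catalytic subunit gene of phosphorylase kinase. Phkg2 (-0.35 ± 0.11, adjusted p = 0.0465) was called without Ha-ras tumour 3 but not without any other array of that comparison (adjusted p = 0.061 to 0.218). The largest changes in Ha-ras tumours were in 2 genes related to Pygl and Pgm1. Pygb, the brain form of glycogen phosphorylase, had 8.85, 9.40 and 9.57 in Ha-ras tumours against 6.44, 6.18 and 6.92 in untreated controls. It rose 6.76-fold (2.76 ± 0.40, adjusted p = 0.000228), in the same tumours in which Pygl fell with a call close to the threshold. Whether these changes are linked was not tested. In Ctnnb1 tumours Pygb ran from 7.25 through a median of 7.50 to 9.20, the highest again tumour 7, against 6.97, 6.63 and 7.13 in phenobarbital controls. All 7 were above the controls, without a call (0.90 ± 0.34, adjusted p = 0.0951). The difference between the changes was -1.85 ± 0.53 (adjusted p = 0.0515).

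Pgm2, a sugar phosphate mutase related to Pgm1, had 8.13, 8.22 and 8.01 in Ha-ras tumours against 6.51, 6.28 and 6.43 in untreated controls. It rose there 3.27-fold (1.71 ± 0.16, adjusted p = 3.25e-06). In Ctnnb1 tumours it ran from 7.04 through a median of 7.25 to 7.64, against 6.77 ± 0.30 (SD, n = 3) in phenobarbital controls. All tumours were above their controls, and Pgm2 rose 1.43-fold (0.52 ± 0.13, adjusted p = 0.0186), but with phenobarbital control 6 left out it was not called (0.35, adjusted p = 0.124). The rise was smaller in Ctnnb1 than in Ha-ras tumours in the test of the difference itself (-1.19 ± 0.20, adjusted p = 0.00231). Pgm1 itself gave -0.06 ± 0.36 for the same difference (adjusted p = 0.958).

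**Figure D4:**
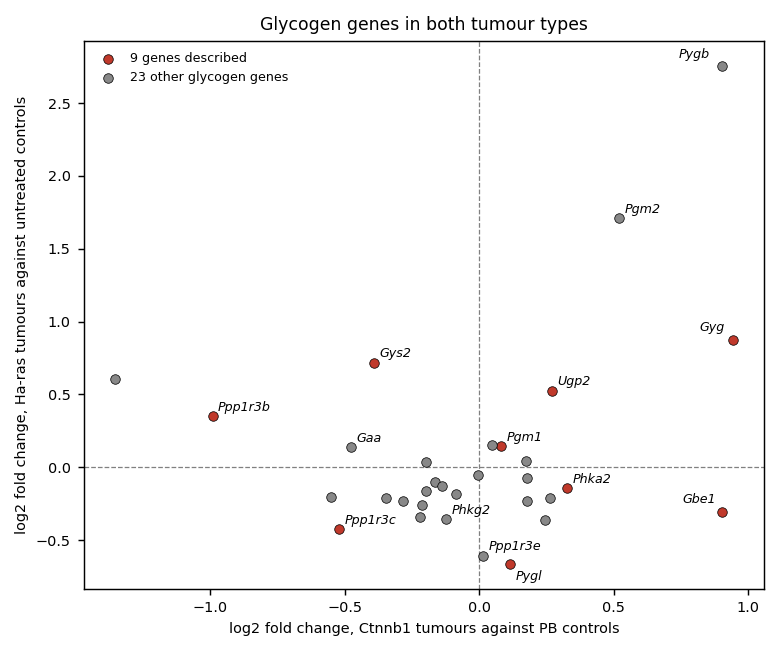
Log2 fold change in Ctnnb1 tumours against phenobarbital (PB) controls (horizontal axis) and in Ha-ras tumours against untreated controls (vertical axis) for the 9 genes and 23 other glycogen genes. Pygb and Pgm2 stand highest on the vertical axis (2.76 and 1.71), and Gyg is at 0.94 and 0.87.

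Between the tumour types 5 of the 23 other genes were higher in Ctnnb1 tumours, against 7.21% of all genes, and 2 were lower, against 7.90%. Stbd1, a glycogen-binding protein that tethers glycogen to membranes, had 11.11 in the lowest, 11.13 in the median and 11.60 in the highest Ctnnb1 tumour, against 10.56, 9.89 and 10.66 in Ha-ras tumours (0.89 ± 0.16, adjusted p = 0.00091). Phkb, the beta subunit of phosphorylase kinase, had 8.99, 9.10 and 9.52 as lowest, median and highest in Ctnnb1 tumours, against 8.46, 8.39 and 8.61 in Ha-ras tumours (0.67 ± 0.13, adjusted p = 0.00228). Both were separate between the tumour types, as were Phka2 and Pygl. The lower 2 were Pygb (-1.46 ± 0.34, adjusted p = 0.00726), with overlapping arrays, and Pgm2 (-0.83 ± 0.13, adjusted p = 0.000372), without overlap.

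Glucose enters and leaves the hepatocyte through carriers and is freed from glucose 6-phosphate by glucose 6-phosphatase, the end point of glycogen breakdown in liver. Of 8 such genes analysed, 3 fell in Ctnnb1 tumours, 1 fell in Ha-ras tumours and none rose in either, where 12.0% and 13.5% of all genes were called. G6pc, the catalytic subunit of that phosphatase, had 6.45, 8.04 and 8.10 in Ha-ras tumours against 10.65, 10.35 and 9.71 in untreated controls, groups far apart. It fell 6.54-fold there (-2.71 ± 0.62, adjusted p = 0.00781). In Ctnnb1 tumours it ran from 8.07 through a median of 9.83 to 10.53, against 12.52, 11.87 and 10.30 in phenobarbital controls, with overlap. It fell by 1.89 ± 0.53 on the log2 scale (adjusted p = 0.0287), but was no longer called once phenobarbital control 4 (-1.41, adjusted p = 0.137) or 5 (-1.74, adjusted p = 0.0845) was left out. Phenobarbital over untreated controls gave 1.33 ± 0.62 for G6pc, without a call (adjusted p = 0.365). Slc37a4, which carries glucose 6-phosphate to that phosphatase, fell 2.01-fold in Ctnnb1 tumours (-1.0 ± 0.23 on the log2 scale, adjusted p = 0.00972), but not without phenobarbital control 6 (-0.78, adjusted p = 0.0717). The glucose carrier gene Slc2a2 fell there by 0.80 ± 0.19 (adjusted p = 0.0135), but not without phenobarbital control 4 (-0.73, adjusted p = 0.0569). In Ha-ras tumours Slc37a4 gave -0.40 ± 0.27 (adjusted p = 0.384) and Slc2a2 -0.13 ± 0.23 (adjusted p = 0.785), and the differences between the changes were not called (adjusted p = 0.393 and 0.236).

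A further 13 genes carry hormone signals to glycogen enzymes. In Ctnnb1 tumours none rose and 1 fell, where 12.0% of all genes were called, and in Ha-ras tumours 1 rose and 2 fell, where 13.5% were. Insr, the insulin receptor gene, ran from 9.60 through a median of 9.76 to 10.10 in Ctnnb1 tumours, against 10.26, 10.32 and 10.38 in phenobarbital controls. It was 10.65, 10.82 and 10.77 in Ha-ras tumours, against 10.60, 10.32 and 10.59 in untreated controls. All Ctnnb1 tumours lay below the other 9 arrays. Insr fell in Ctnnb1 tumours (-0.47 ± 0.11, adjusted p = 0.0151), a call that needed phenobarbital control 6 (adjusted p = 0.0623 without it), and its changes differed between the tumour types (-0.71 ± 0.18, adjusted p = 0.0269). That difference was not called with phenobarbital control 6 (adjusted p = 0.0546), untreated control 2 (0.0827) or Ha-ras tumour 2 (0.0714) or 3 (0.0523) left out. Its other 2 probe sets gave 0.02 and 0.10 in Ctnnb1 tumours. Prkar1a, a regulatory subunit of the cAMP-dependent kinase, was the gene that rose in Ha-ras tumours (0.83 ± 0.18, adjusted p = 0.00618), and its other probe sets gave 0.50 and 0.20 there. Prkar2a, another regulatory subunit of that kinase, fell in Ha-ras tumours (-0.89 ± 0.20, adjusted p = 0.00611), while its other 3 probe sets gave -0.68 to -0.07 without a call. Pde3b, a phosphodiesterase that breaks down cAMP, fell there too (-0.78 ± 0.15, adjusted p = 0.00257). Irs1, an adaptor of the insulin receptor, was the only gene of the 3 lists called between the controls. It was higher in phenobarbital than in untreated controls (1.06 ± 0.18, adjusted p = 0.0315). The call was lost without phenobarbital control 4 or 6 or untreated control 1 or 3 (adjusted p = 0.0745 to 0.108).

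**Figure D5:**
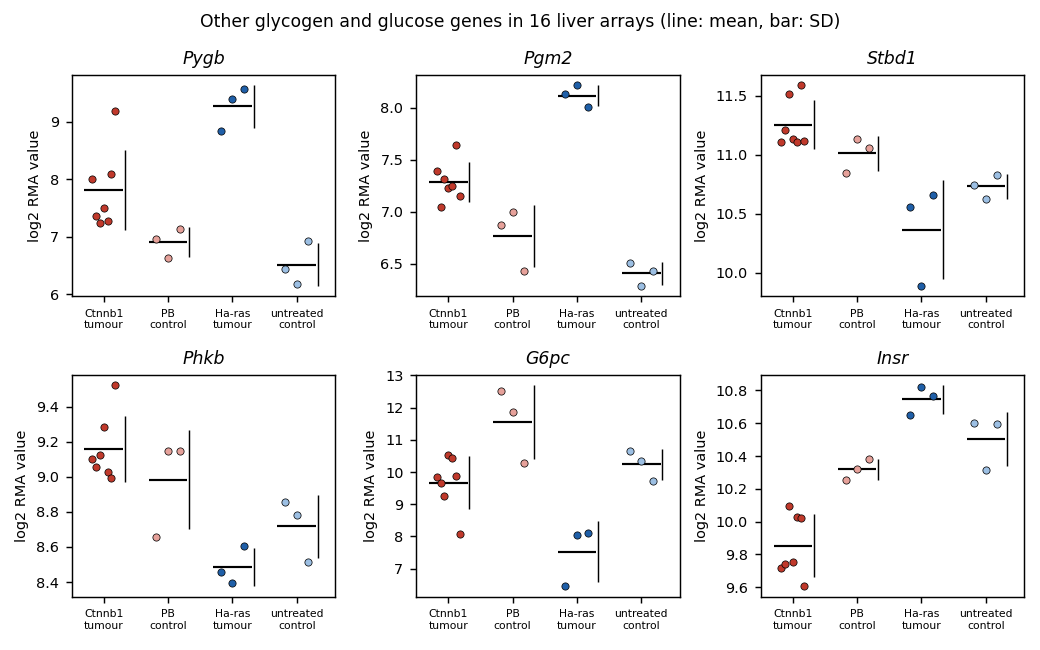
Log2 RMA value (vertical axes) of Pygb, Pgm2, Stbd1, Phkb, G6pc and Insr on each array of the 4 groups, with points for arrays, horizontal lines for means and vertical bars for the SD. By group mean, Pygb and Pgm2 are highest in Ha-ras tumours, G6pc is lowest there, and Insr is lowest in Ctnnb1 tumours. Arrays of the tumour types overlap for Pygb and G6pc.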

How the data were processed

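Total RNA of 16 liver samples was read on Affymetrix arrays. The deposited table gives a log2 value for each probe set, made by the authors with RMA and R 2.14.1, per the submitters' processing notes; array files before RMA and detection calls were not used here. All 45101 probe sets were read without further scaling. Of these, 34945 had 1 symbol in the platform annotation (34741 matched to RefSeq by Entrez identifier, 0 renamed), 932 several, 9160 none and 64 were array controls. Each gene took its probe set with the highest mean.

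limma 3.58.1 (R 4.3.3, with statmod 1.5.0 and the R package data.table, version 1.17.8) fitted 1 coefficient per group over all 16 arrays for 5 comparisons, followed by eBayes and Benjamini-Hochberg adjustment over 18193 genes. Probe sets named singly were adjusted over all 34945. The number of arrays limits the precision. The fit was tested on simulated data.

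The 9 genes and the lists were chosen with earlier results of these data known. All 9 genes were named. Up to 4 called genes per other list and comparison, by size of change, could be named, and not all were. The 3 genes nearest to each of the 9 called in a tumour against its controls were named. Some genes of the lists are not analysed here. Alternatives are given in the closing section.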

Additional observations from a re-analysis of the deposited data

Results flagged for a closer look

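In 4 of the 18 probe sets, 1 array of the 7 Ctnnb1 tumours stood far from the others, each time tumour 7 as the highest. Gbe1 was 11.95 there, against 10.01 to 10.49 in the other 6 tumours. Pgm1 was 11.61, against 10.31 to 10.84. Of the Ugp2 probe sets, 1 was 11.33, against 9.82 to 10.37, and another was 11.94, against 10.59 to 11.15. Chance alone would mark about 1 in 20 groups, and probe sets of 1 gene on 1 array are not independent.

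In the test of the difference itself, the change of Pgm2 in Ctnnb1 tumours minus that in Ha-ras tumours was -1.19 (adjusted p = 0.00231). For Insr the same difference was -0.71 (adjusted p = 0.0269), and with the mean of its probe sets it was -0.21 (adjusted p = 0.361).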

How the results depend on the processing

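Beside the reported setting 28 others were tried, 16 of which left out 1 array. The 7 calls among the 9 genes gave 142 values, of which 129 kept direction and call, 13 lost the call and 0 turned; those of Gys2, Gyg and Phka2 held in all that were run. Pygl in Ha-ras tumours also lost its call with the replicate number as a fixed block (adjusted p = 0.096), every probe set tested alone (0.0514) and arrays centred on their medians (0.0614). Gbe1 between tumour types lost it with only those arrays (0.061).

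The count of called genes in Ctnnb1 tumours was 2 in place of 1 with only the arrays compared, the fixed replicate block, dim genes left out or quantile normalization again, and 1 to 2 with 1 array left out. In Ha-ras tumours it was 1 in place of 2 with every probe set alone or median centring, and 1 to 2 with 1 array left out. With only the arrays compared it was above 2 there, since Ugp2 was called as well. For the difference it was 1 in place of 0 with the fixed replicate block, and 0 to 2 with 1 array left out. Between tumour types it was 2 to 5 with 1 array left out, beside 4. Deviations from group means correlated at -0.12 to 0.13 between same-numbered and -0.18 to 0.15 between other samples of the phenobarbital arm, and at 0.03 to 0.40 and -0.32 to 0.07 in the untreated arm, where Ha-ras tumour 1 was nearer to untreated control 3 than to 1. The reported fit did not take the numbers as pairs. In the untreated arm numbers 2 and 3 did correlate with their own number, at 0.40 and 0.24, so these values do not settle whether samples there are paired. Under the fixed block Gys2 was called in Ctnnb1 tumours (-0.59, adjusted p = 0.0353), in Ha-ras tumours (0.72, 0.00665) and for the difference (-1.31, 0.0063).

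Of 803 values for changes not called, 750 stayed so in the same direction, 16 became calls and 37 turned. In the reported setting those that turned lay between -0.43 and 0.35. With 1 array left out the ranges were -0.02 to 0.22 (Gyg, difference), -0.24 to 0.10 (Gbe1, phenobarbital over untreated controls), -0.15 to 0.03 (Ugp2, between tumour types), -0.08 to 0.19 (Pgm1, Ctnnb1 tumours), -0.22 to 0.05 (Pgm1, difference), -0.14 to 0.25 (Pygl, Ctnnb1 tumours), -0.25 to 0.14 (Pygl, phenobarbital), -0.01 to 0.78 (Ppp1r3b, Ha-ras tumours), -0.84 to 0.26 (Ppp1r3c, Ha-ras tumours) and -0.78 to 0.32 (Ppp1r3c, difference). Leaving out 3 arrays at once (Ctnnb1 tumours 6 and 7, phenobarbital control 6) gave -0.03 (Gyg, difference), 0.10 (Gbe1, phenobarbital), -0.21 (Pgm1, Ctnnb1 tumours), -0.12 (Pygl, Ctnnb1 tumours) and 0.14 (Pygl, phenobarbital). Array weights gave 0.02 (Gbe1, phenobarbital), -0.14 (Pgm1, Ctnnb1 tumours), -0.07 (Pygl, Ctnnb1 tumours) and 0.09 (Pygl, phenobarbital). The mean of all probe sets gave -0.13 (Gyg, phenobarbital), -0.21 (Pgm1, Ctnnb1 tumours) and 0.22 (Ppp1r3c, difference), and the most variable probe set -0.41 (Gyg, phenobarbital). The fixed replicate block gave -0.15 (Pgm1, Ctnnb1 tumours) and 0.04 (Ppp1r3c, difference). The causes were not tested.

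Over all genes, calls numbered 804 (fixed block) to 3532 (every probe set) in Ctnnb1 tumours beside 2192, 1698 to 3775 in Ha-ras tumours beside 2462, 648 to 1547 for the difference beside 988, 3 to 242 between controls beside 39, and 1745 to 4252 between tumour types beside 2750. Of 577 values for called genes of the 3 lists, 517 kept the call and 60 lost it.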
